A study of Vitis amurensis with 6 samples.

Results

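The strongest always-open chromatin sites on the placed chromosomes of Amur grape (Vitis amurensis) leaves are described here, a set of 481 regions among 44710 (1.08%). ATAC-seq was used, a method in which a transposase places adapters into accessible DNA. Sites with a pile-up of inserted fragments were called transposase hypersensitive sites (THSs), separately in each library. The 481 regions were chosen by their values. Overlapping THSs from any of the 6 lists were joined into 1 region (an overlap of 1 bp was enough), and a region was kept when it lay on chromosomes 1 to 19, held a THS from every list and reached a score of at least 50 in every list. The score was taken to be the −log10 q of a THS, and the best THS of a list in a region is the one with the highest score. Presence in all lists and the score are therefore properties of the choice and were tested only in a library left out of it. No limit was set on the width, edges or splitting of THSs or on the place along a chromosome. A list that calls no narrow THSs can still keep a narrow site out of the set.

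The cold group comprised wild-type, one-month-old in vitro plants held at 4°C for 2 h (3 libraries). The control group comprised the same kind of plants at 26°C, sampled at 0 h (3 libraries). Leaves of several plants were pooled for a library, according to the study's methods, so a library is an average over plants. The control plants were not followed at 26°C up to 2 h, and the effect of cold cannot be told apart from that of elapsed time.

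In plant nuclei most DNA is wrapped around nucleosomes, and the transposase reaches mainly the stretches left bare. Such stretches are known from promoters and enhancers, where transcription factors displace nucleosomes, and part of them stays open whatever the treatment. A peak score grows with the number of fragments at a site relative to its surroundings and with the depth of the library. A high score thus says how surely a site was called and not how many nuclei carry it open. Genes near these regions and their DNA sequence were not analysed here. Whether the regions resemble DNA held in many copies elsewhere in the nucleus or in the organelles was not tested.

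The 6 lists held 94312 THSs on 33 sequences, with 13350, 15694 and 13942 in cold replicates 1, 2 and 3 and 18770, 19537 and 13019 in control replicates 1, 2 and 3. The lists differed in their widths. The narrowest THS measured 203, 111 and 106 bp in cold replicates 1, 2 and 3 and 207, 217 and 199 bp in control replicates 1, 2 and 3. Cold replicates 2 and 3 therefore stood apart with short width limits, and mean widths, covered lengths and THS numbers are also given without them. The lists carry no read numbers, and scores were not adjusted for the depth of the libraries, which was not analysed here. For 3 against 3 libraries, 0.1 is the smallest p of an exact permutation test.

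Counted in bins of equal width on a log scale of the score, always-open sites of high score formed a second, smaller peak. On chromosomes 1 to 19 there were 2837 regions with a THS in all 6 lists, and 481 of them (17.0%) had a score of at least 50 in every list. No library reached the limit in 2044 regions (72.0%), and 5 of the 6 libraries reached it in 50 regions. Across the 2837 regions, the lowest of the 6 scores was most often between 2.51 and 3.98 (521 regions). From there the numbers fell to 38 regions between 158 and 251. They were higher again further up, with 57 regions between 631 and 1000 and 56 between 1000 and 1585. Such bins span more score units further up, so the rise is stated for the log scale only. It was not tested. The limit of 50 thus fell on the slope of the main peak, with 135 regions between 39.8 and 63.1, and not in a gap.

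**Figure D1:**
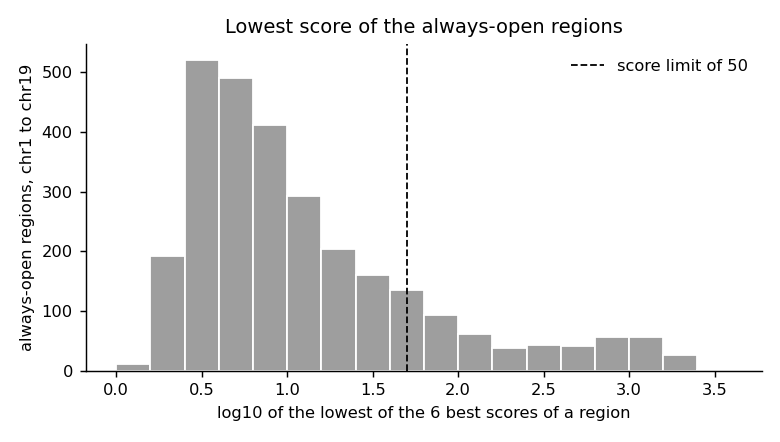
Histogram of the lowest of the 6 best scores (log10 on the horizontal axis, bins of 0.2) for the 2837 always-open regions of chromosomes 1 to 19, with the number of regions on the vertical axis and the limit of 50 as a dashed line. Beyond the main peak at 521 regions, the bars fall to 38 regions and reach 57 near a score of 1000.

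Values next to the limit were close on both sides. The region just inside it, chr14:19009452-19009726, had a lowest score of 50.03 in control replicate 2. It was followed by chr8:9824742-9827743 (50.2 in cold replicate 3) and chr19:21459491-21460066 (50.4 in cold replicate 3). Just outside lay chr15:16434914-16435845 and chr9:12463171-12464796, with 49.9 and 49.5 in control replicate 3, and chr16:3679107-3682246 with 49.4 in cold replicate 3. The last of these had scores between 58.8 and 85.7 in the remaining libraries.

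All 481 regions stood near the top of every list. The lowest within-list percentile of any of them was 92.1, in cold replicate 2. The median score was 281, 275 and 243 in cold replicates 1, 2 and 3 and 334, 299 and 320 in control replicates 1, 2 and 3. The highest scores were 4136, 3638 and 3121 in the cold libraries and 4849, 4874 and 5117 in the control libraries. Of the 100 highest-scoring THSs of each list, 79 to 83 lay in these regions. The regions held 492, 567 and 582 THSs in cold replicates 1, 2 and 3 and 492, 482 and 496 in control replicates 1, 2 and 3, which is 2.47 to 4.17% of a list. By length they held 5.11, 6.51 and 7.59% of the covered bases in the cold libraries and 3.46, 3.28 and 5.23% in the control libraries. Their own covered length was 302, 248 and 238 kb in the cold libraries and 311, 316 and 305 kb in the control libraries.

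The site with the highest lowest score was chr6:15611507-15612022 (coordinates on the grape 12X assembly). It scored 4136, 3540.31 and 3121 in cold replicates 1, 2 and 3 and 4849, 4874 and 3778 in control replicates 1, 2 and 3. Control replicate 3 lay below cold replicate 1 here, so the groups overlapped. The best THS of this site was 499 to 514 bp wide in the cold libraries and 510 to 513 bp in the control libraries. Next came chr9:20833127-20833523, with scores of 3548, 3638 and 2890.05 in the cold libraries and 3872, 3482 and 4014 in the control libraries. Its THS started and ended at the same base within 1 bp in all 6 lists and measured 396 or 397 bp in each. The third, chr7:19731467-19732014, scored 4034, 3430.27 and 2460.08 in the cold libraries and 4396, 3837 and 5117 in the control libraries. Control replicate 3 was the highest library at this site and cold replicate 3 the lowest, with widths of 545 to 548 bp throughout.

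The following 7 by the lowest score were chr8:11596354-11597343, chr19:20115756-20116519, chr12:5363753-5364166, chr15:1-466, chr16:3335908-3336429, chr11:10252359-10252932 and chr1:17139926-17140283. Their lowest scores ranged between 2076 and 2378. The site chr15:1-466 begins at the first base of chromosome 15 and scored 2514, 2713 and 2562 in the cold libraries and 3085, 3055 and 2189.82 in the control libraries. It was one of 2 among the 10 in which control replicate 3 scored below control replicate 2, the other being chr6:15611507-15612022. The edges of 8 of the 10 sites moved by at most 15 bp over all libraries. The exceptions were chr8:11596354-11597343, whose end moved by 47 bp, and chr11:10252359-10252932, whose start moved by 130 bp. The site on chromosome 11 measured 519, 447 and 444 bp in the cold libraries and 574 bp in each control library, the end staying at the same base.

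**Figure D2:**
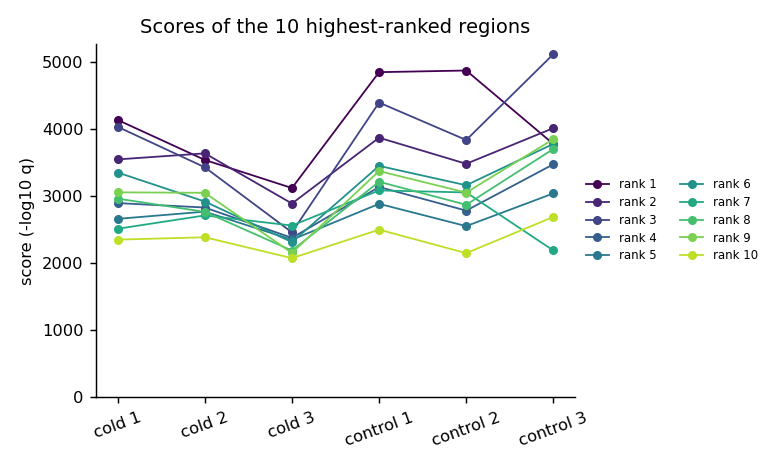
Scores (−log10 q, vertical axis) of the 10 highest-ranked regions in the 3 cold and the 3 control libraries; each line joins the values of 1 region and stands for no order of the libraries. All 10 stay above 2000 in every library, and the regions of rank 1 and 7 are low in control replicate 3 where the other 8 are high.

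The order of the 481 regions by score was much the same in every library. Spearman's rho between 2 libraries lay between 0.900 and 0.989 over the 481 regions (15 pairs), and between 0.707 and 0.841 over the 2356 always-open regions below the limit. These values describe regions that share the same lists and are given with no test. Both sets were cut by the score itself, so nothing is read from the difference in rho between them. Score and width were nearly unrelated among the strong regions, with rho between −0.0304 and 0.0756 in cold replicate 1 and the control libraries and 0.200 and 0.203 in cold replicates 2 and 3.

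The balance between libraries was not the same in all regions. Cold replicate 3 had the lowest score in 318 of the 481 regions and control replicate 3 the highest in 288, while control replicate 3 was the lowest in 53. On the log2 scale, the score of control replicate 3 over that of control replicate 2 had a median of 0.32. Among the 165 regions with a lowest score of at least 500, this balance lay between 0.25 and 0.5 in 127, and it was below 0 in 12. Among the 156 regions with a lowest score under 100 it was spread widely. It was above 0.5 in 80 of them and below 0 in 62. In the always-open regions below the limit the median was −0.37. These are differences between libraries of the same group, and their cause was not tested.

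**Figure D3:**
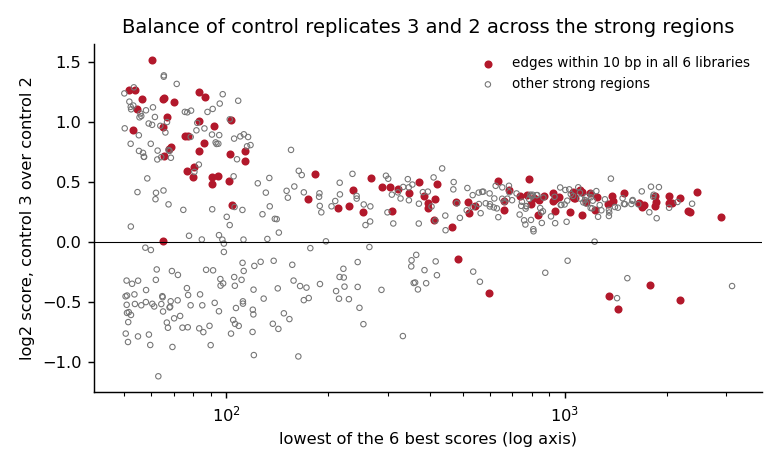
Balance of control replicates 3 and 2 (log2 ratio of scores, vertical axis) against the lowest of the 6 scores (log axis) for the 481 regions; filled points are the 112 regions with both edges within 10 bp in all libraries. A dense band between 0.25 and 0.5 runs through the high scores, while regions under 100 fall mostly above 0.5 or below 0.

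The edges of the strong sites lay closer together over the 6 libraries than those of the weaker always-open sites, and a minority had common edges in all of them. For each region the start and the end of the best THS were compared over the 6 lists, and the larger of both ranges was taken as the edge spread. Its median was 64 bp in the 481 regions and 470.0 bp in the 2356 always-open regions below the limit. The regions below the limit were also wider, with a median region width of 881 bp against 517 bp. An edge spread cannot exceed the width of its region, and regions of like width were not compared. Both edges agreed within 10 bp in all 6 lists in 112 of the 481 regions (23.3%, exact binomial 95% interval 19.6 to 27.3%) and in 16 of the 2356 below the limit (0.679%). The interval covers counting error only and takes the regions as independent. In cold replicate 1 and the control libraries alone, both edges agreed within 10 bp in 214 of the 481 regions (44.5%) and in 2.46% of those below the limit.

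Edge agreement was highest at the highest scores but did not follow the score alone. The share within 10 bp was 5.96% for always-open regions with a lowest score of 25 to 50 and 18.6% for 50 to 100. It was 10.1% for 100 to 200, 24.7% for 200 to 500, 26.2% for 500 to 1000 and 40% for 1000 and over. The distance of a library's edges from the median edges of the other 5 libraries was 2.5, 12 and 20.5 bp in cold replicates 1, 2 and 3 (median over the 481 regions). It was 3.0, 3.5 and 3.5 bp in control replicates 1, 2 and 3. In the regions below the limit this distance was 67.0, 131.5 and 161 bp in the cold libraries and 84.8, 85.0 and 68.0 bp in control replicates 1, 2 and 3. The strong regions were lower in 6 of 6 libraries, with a mean difference of −92 bp (two-sided exact sign-flip permutation over the 6 libraries, p = 0.031, the smallest possible, with an adjusted p of 0.125 over 8 tests). Each library is measured against the edges of the other 5, so the 6 differences are not independent. Nothing is read from this p.

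**Figure D4:**
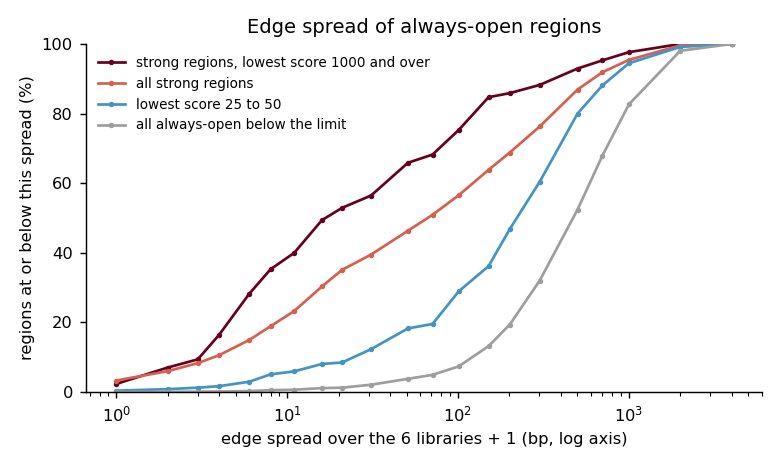
Cumulative share of regions (vertical axis, %) with an edge spread over the 6 libraries at or below the value on the horizontal axis (bp plus 1, log axis), for regions with a lowest score of 1000 and over, all 481 strong regions, always-open regions with a lowest score of 25 to 50 and all always-open regions below the limit. The curves stay in this order from 10 bp upward, with 40, 23.3, 5.96 and 0.679% at 10 bp.

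The 112 regions with edges within 10 bp were of like width in every library, including those with short limits. Their median widths were 306, 310.5 and 309.5 bp in cold replicates 1, 2 and 3 and 308, 302.5 and 309.5 bp in control replicates 1, 2 and 3. In the other 369 regions the medians were 531, 388 and 365 bp in the cold libraries and 577, 568 and 544 bp in the control libraries. Edges within 10 bp imply like widths and leave little room for split THSs, so both are descriptions fixed largely by the choice of the 112. None of the 112 was split in cold replicates 2 or 3, and 64 and 72 of the 369 were. Control replicate 3 scored above control replicate 2 in 106 of the 112 (94.6%) and in 241 of the 369 (65.3%). The 112 also had higher scores, with a median lowest score of 480 against 164 in the 369. The balance was not compared at like score.

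Over all 481 regions the THSs of cold replicate 1 were as wide as those of the controls, and those of cold replicates 2 and 3 were narrower. The median width of the best THS was 484, 372 and 354 bp in cold replicates 1, 2 and 3 and 499, 496 and 484 bp in control replicates 1, 2 and 3. The group means were 403 ± 70.4 bp in cold and 493 ± 7.94 bp in control (SD, n = 3 each). The difference of −89.7 bp had p = 0.2 in a two-sided exact permutation (0.1 is the smallest possible, with an adjusted p of 0.32 over 8 tests). Without cold replicates 2 and 3 it was −9.0 bp. The bases covered per region gave 421 ± 55.5 bp in cold and 495 ± 9.07 bp in control (SD, n = 3 each), with p = 0.2 in the exact permutation and 0.32 after adjustment. Without cold replicates 2 and 3 this difference was −9.67 bp.

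Median widths differed less between libraries at the strong sites than at the weaker ones. Below the limit, the median width was 547, 298 and 260 bp in cold replicates 1, 2 and 3 and 664, 676 and 524 bp in control replicates 1, 2 and 3. The strong regions were thus narrower than the weaker ones in cold replicate 1 and the controls, and wider in cold replicates 2 and 3. Over all 6 libraries the difference in median log2 width was −0.06 (wider in 2 of 6 libraries, p = 0.688 by exact sign-flip permutation and 0.786 after adjustment). This difference averaged 0.20 ± 0.33 in the cold and −0.32 ± 0.18 in the control libraries (SD, n = 3 each). Its cold and control means differed by 0.52, with p = 0.2 in the exact permutation (0.32 after adjustment). Both cold replicates 2 and 3 had a narrower THS than each of the other 4 libraries in 251 of the 481 regions (52.2%) and in 63.5% of those below the limit.

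**Figure D5:**
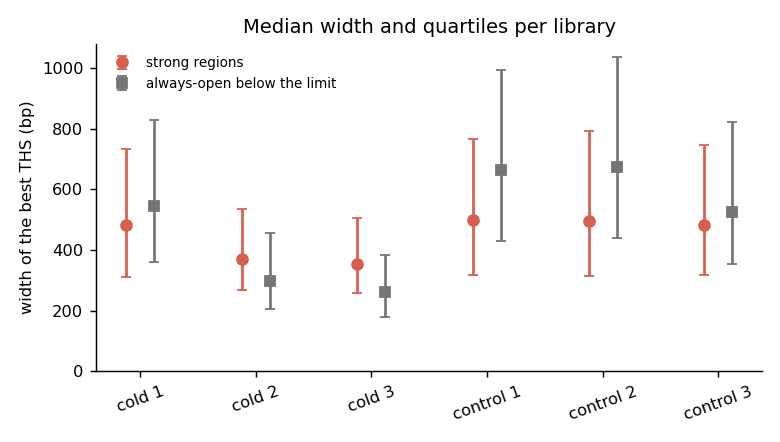
Width of the best THS (bp, vertical axis) in the 3 cold and the 3 control libraries, as median (points) with lower and upper quartile (bars), for the 481 strong regions and the 2356 always-open regions below the limit. The strong regions lie at 484 to 499 bp in cold replicate 1 and the controls and at 372 and 354 bp in cold replicates 2 and 3, with a smaller step than the weaker regions.

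Most strong sites were called as 1 THS. A single THS in every list was found in 405 of the 481 regions. The regions split into several THSs numbered 11, 64 and 72 in cold replicates 1, 2 and 3 and 10, 1 and 14 in control replicates 1, 2 and 3, and 61 were split in both cold replicates 2 and 3. A region held 1.14 ± 0.10 THSs on average in cold and 1.02 ± 0.015 in control (SD, n = 3 each), with p = 0.3 in the exact permutation and 0.4 after adjustment. Without cold replicates 2 and 3 the difference in THSs per region was 0.00416, against 0.119 with them. As a share, 2.29, 13.3 and 15% of the strong regions were split in the cold libraries and 2.08, 0.208 and 2.91% in the control libraries. Below the limit it was 10.1, 28.0 and 27.5% in the cold and 7.30, 6.28 and 9.47% in the control libraries. The share was lower in the strong regions in 6 of 6 libraries, with a mean difference of −8.82 percentage points (exact sign-flip permutation, p = 0.031, the smallest possible, 0.125 after adjustment). The regions below the limit were wider (median region width 881 bp against 517 bp), and splitting was not compared at like width.

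For single regions, the bases covered by THSs were compared between cold and control with limma over all 3603 always-open regions. Widths were taken as log2 values and centred on each library's median, and p-values were adjusted over all 3603. None of the 481 strong regions passed an adjusted p of 0.05 (smallest adjusted p = 0.274), and 34 had an unadjusted p below 0.05. Of all 3603 regions, 0.0278% were called narrower in cold and 0% wider, and 429 had an unadjusted p below 0.05. The median difference, cold minus control, was 0.51 in the strong regions on the centred scale. Without centring it was −0.08, against −0.50 over all always-open regions, so the direction depends on the scale. With all 6 libraries, a region of equal width in every list had a centred difference of 0.595. Without cold replicate 1, limma on the centred scale called 266 of the 481 strong regions wider in cold and 11 narrower. Over all 3603 regions it called 711 wider and 272 narrower. That comparison rests on the 2 cold libraries with short limits. Its median centred difference in the strong regions was 0.72. In bp, the median covered length of the strong regions was 392 and 386 bp in cold replicates 2 and 3. It was 503, 496 and 485 bp in control replicates 1, 2 and 3. The calls are thus relative to the library medians and do not count regions wider in bp.

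The groups of libraries did not overlap in width in a minority of strong regions. The best THS was narrower in all 3 cold libraries than in all 3 control libraries in 87 of the 481 regions (18.1%), where the background over the 2837 always-open regions was 25.3%. It was wider in all cold libraries in 11 regions (2.29%), where the background was 0.634%. On the centred scale the largest increase in covered bases was at chr11:15204806-15205181 (log2 difference 0.96 ± 0.32, SE), with 357, 360 and 370 bp in the cold libraries and 252, 246 and 357 bp in the control libraries. Its groups touched, since control replicate 3 equalled cold replicate 1. At chr7:19065868-19066279 the THS covered 299, 411 and 395 bp in cold and 294, 292 and 294 bp in control. At chr12:1211273-1211777 it covered 420, 505 and 505 bp in cold and 420, 417 and 420 bp in control. At both of these sites cold replicate 1 was as narrow as the controls or nearly so.

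The largest decrease on the same scale was found at chr19:22310822-22311742 (log2 difference −0.82 ± 0.39, SE). Its THS measured 921, 220 and 203 bp in the cold libraries and 921, 919 and 921 bp in the control libraries, with the start at the same base in all 6 lists (start spread 0 bp). The site chr11:14825577-14826425 measured 364, 263 and 145 bp in cold and 730, 748 and 478 bp in control, the only one of the 3 with groups that did not overlap. At chr5:21357103-21357859 the widths were 640, 178 and 173 bp in cold and 736, 757 and 620 bp in control. None of these 6 regions passed limma (adjusted p = 0.274 in each, with Benjamini-Hochberg adjustment).

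The stretch covered by the best THS of all 6 lists, the core, had a median length of 337 bp and made up 84.3% of a strong region, against 22.3% below the limit. The regions below the limit were wider (median 881 bp against 517 bp), and core shares were not compared at like width. The longest core, 2782 bp, was that of chr2:18714590-18717413, whose THS was 2787, 2818 and 2819 bp wide in the cold libraries and 2788, 2787 and 2789 bp in the control libraries. It was followed by chr13:11911518-11914060 with 2410.0 bp and chr2:11440236-11442436 with 2092 bp. No base was covered by all 6 best THSs in 7 of the 481 regions. The widest such gap was at chr9:14455310-14457952, followed by chr4:12427552-12429334 and chr13:6801362-6802727, where the best THSs of different lists lay in different parts of the region. At chr9:14455310-14457952 the region held 2, 3 and 3 THSs in cold replicates 1, 2 and 3 and 2, 1 and 2 in control replicates 1, 2 and 3.

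Score differences between cold and control are given as descriptions, since scores chose the regions. By within-list percentile, all 3 cold libraries lay below all 3 control libraries in 146 of the 481 regions (30.4%), where the background over the 2837 always-open regions was 26%. The opposite was found in 0 regions, where the background was 0.247%. By the score itself the numbers were 49 regions lower in cold (10.2%, background 14.4%) and 0 higher (background 1.09%). The control lists of replicates 1 and 2 were longer than each cold list, and that of control replicate 3 was shorter. What list length adds to these percentiles was not tested, and nothing is read from these shares.

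Relative to the median always-open region of each library, the score in cold minus that in control was 0.01 on the log2 scale in the median strong region, with quartiles of −0.20 and 0.17. Without centring the median was −0.25, with quartiles of −0.46 and −0.09, so the direction in the median region depends on the scale. The largest decrease was at chr12:18362842-18363790, where cold replicates 1, 2 and 3 scored 674, 177 and 84.7 and control replicates 1, 2 and 3 scored 782, 783 and 794. All cold libraries were lower there, by very different amounts, while its width was 908, 793 and 754 bp in cold and 919, 949 and 913 bp in control. The site chr13:17638751-17639743 scored 399, 167 and 112 in cold and 466, 466 and 472 in control. At chr6:9568542-9569195 the scores were 145, 84.1 and 60.5 in cold and 223, 214 and 150 in control, and at chr4:5690461-5690968 they were 115, 81.0 and 51.8 in cold and 169, 103 and 232 in control. In the last of these cold replicate 1 lay above control replicate 2.

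The largest increase was at chr7:14067032-14068245, where the score was 164, 368 and 302 in the cold libraries and 155, 179 and 129 in the control libraries. Cold replicate 1 lay within the range of the controls. At chr9:11864584-11864923 the scores were 51.0, 172 and 136 in cold and 81.0, 79.9 and 58.6 in control. The site chr4:12427552-12429334 scored 98.0, 188 and 201 in cold and 127, 125 and 98.3 in control, and chr19:699814-701500 scored 58.1, 139 and 109 in cold and 88.5, 85.8 and 50.5 in control. In each of these 4 regions the increase was found in cold replicates 2 and 3 and not in cold replicate 1.

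To read the constancy of these sites in libraries that had not chosen them, the regions were rebuilt from 5 lists at a time and looked up in the list left out. Of the regions chosen without it, cold replicates 1, 2 and 3 reached a score of 50 in 98.4% (of 489), 99.4% (of 484) and 94.9% (of 507). Control replicates 1, 2 and 3 did so in 99.8% (of 482), 95.1% (of 509) and 96.8% (of 497). Exact binomial 95% intervals, which cover counting error only, reached down to 92.6% for cold replicate 3 and up to 100.0% for control replicate 1. The regions that reached the limit numbered 481 in 5 of the libraries and 484 in control replicate 2, so the shares differ mainly through the number chosen. The mean was 97.5 ± 2.36% in cold and 97.2 ± 2.38% in control (SD, n = 3 each, exact permutation p = 1, also after adjustment). Each library helped to choose the regions looked up in the others, by the same score limit. The shares are therefore not independent, and nothing is read from this p.

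When the regions were chosen from the control libraries alone, 558 were found. A score of 50 was reached in 536, 520 and 492 of them in cold replicates 1, 2 and 3 (96.1, 93.2 and 88.2%). All 3 cold libraries had a THS in 554 (99.3%) and reached the limit in 481 (86.2%). Chosen from the cold libraries alone, 539 regions were found. The limit was reached in 528, 505 and 517 of them in control replicates 1, 2 and 3 (98.0, 93.7 and 95.9%). All 3 control libraries had a THS in 504 (93.5%) and reached the limit in 486 (90.2%).

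Control replicate 2 was the exception in presence. A THS was found in 99.8, 99.8 and 100.0% of the left-out regions in cold replicates 1, 2 and 3 and in 99.8, 95.5 and 99.4% in control replicates 1, 2 and 3. In control replicate 2, 23 of 509 regions had no THS at all. These 23 were 208 to 286 bp wide, and 9 of them were narrower than the narrowest THS of that list (217 bp). The strongest were chr9:5950894-5951105 (212 bp), with scores of 1625 to 2056 in the other 5 lists, and chr16:4452790-4452998 (209 bp), with 1564 to 2004. Both were chosen after their values were seen. The narrowest of the 481 regions was 220 bp wide, so the 9 sites narrower than 217 bp are outside the set through the list of control replicate 2.

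Strong sites were found on every chromosome. Their number ranged from 17 on chromosome 15 to 39 on chromosome 9, with a median of 25. Per Mb up to the last THS of the chromosome there were 0.816 on chromosome 16 to 1.70 on chromosome 9, and 1.13 over all. As a share of the always-open regions of a chromosome they made up 9.0% on chromosome 16 and 9.94% on chromosome 15, but 30.0% on chromosome 6 and 28.3% on chromosome 8. These shares were not tested. Within 1 Mb of the first or last THS of a chromosome lay 53 of the 481 regions (11%), and 6.20% of the always-open regions below the limit. Between 40 and 60% of that length lay 106 (22.0%), against 22.5% below the limit.

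Most strong sites stood alone. The median distance to the nearest other one was 231 kb, and the most isolated lay 3.64 Mb from the next. The nearest always-open region of any score was 48.2 kb away in the median, against 18.1 kb for regions below the limit. Runs of strong sites with gaps of at most 10000 bp numbered 32 and held 75 regions, of which 24 runs were pairs. The longest run, chr5:13071154-13094419, held 5 regions within 23266 bp. Next came chr11:10252359-10262080 with 4 regions in 9722 bp, which includes the ninth of the sites ranked above. Both runs were named after their values were seen. Distances were not compared with those of sites placed at random.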

How the data were processed

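ATAC-seq libraries of leaves were compared between cold (2 h at 4°C) and control (0 h, 26°C), 3 each, grouped by their labels. Per the study's methods, the authors used Cutadapt for trimming, BWA for mapping against 12X (the assembly of the related Vitis vinifera), Samtools for removing duplicates, kept unique reads and called THSs per library with MACS2 (q threshold 0.05, no model, no shift, extension 200 bp). The narrowest THSs of cold replicates 2 and 3 (111 and 106 bp) and of control replicate 3 (199 bp) were shorter than this extension. Whether all 6 lists were called with these same settings was not tested. The sources used here give no versions of these tools. The deposited score was read as −log10 of the q-value, since the lowest values (1.30 to 1.31) lie at the −log10 of 0.05. Scores are printed as deposited. Log2 score differences were centred on each library's median over the always-open regions of chromosomes 1 to 19.

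Regions were merged in Python 3.11.15 (numpy 2.4.6, pandas 2.3.3) and their number was checked with bedtools 2.31.1. Library values were compared by exact permutation, with Benjamini-Hochberg adjustment over 8 tests, and region widths with limma 3.58.1 in R 4.3.3. The region rule and limma were run on simulated data, and the exact tests were checked on small inputs of known p. The limma simulation gave all regions and libraries the same spread, taken from the control libraries. It therefore does not cover the larger spread among the cold libraries. Intervals are exact binomial (scipy 1.17.1), and plots used matplotlib 3.10.9.

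Named are the 10 regions with the highest lowest score, 3 on each side of the limit, 4 with the largest score change and 3 with the largest width change in each direction, and 3 with the longest and the shortest core. The members, lists and tests were chosen with earlier results of these data known. Edge, splitting and balance measures were added after the data were seen. Planned looks at genes and motifs were not made, as no annotation or genome of this assembly was used here. For libraries of the same number, the correlations of deviations from the group means were −0.07, 0.02 and −0.11 for scores and 0.13, −0.05 and 0.15 for widths. Not every pair was over 0.1, so replicate numbers were not used to pair libraries.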

Additional observations from a re-analysis of the deposited data

How the results depend on the processing

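With 3 libraries per group, no exact comparison of the groups could reach 0.05. Of 127 alternatives, 89 kept direction, side of the threshold or size. In the exact group comparisons the side of the threshold was fixed in advance, so only the direction could change. A width difference of −9.0 bp in the 4 libraries with long limits counted as kept. The count is therefore no measure of robustness. The number of regions (481) became 716 with a score limit of 25 and 325 with 100, and was 482 to 509 without 1 library. For the width of the best THS (−89.7 bp), covered length and THSs per region, all alternatives kept the direction. Without 1 library these differences were −130.0 to −65.0 bp, −106 to −56.2 bp and 0.0821 to 0.176. The replicate block gave the same −89.7 bp (exact sign-flip permutation p = 0.25). In held-out recovery the difference (0.318 percentage points) changed sign with a limit of 100 (−1.55), the top 10% of each list (−1.10) and all sequences (−0.854), and was −0.748 to 1.65 without 1 library. Recovery of control regions in cold libraries (92.5%) was 84.9% for the top 10% of each list. The width difference from weaker regions (−0.06) was −0.17 to 0.012 without 1 library. Edge distance (−92 bp) was −97.5 to −82.3 bp and the split share (−8.82) was −9.54 to −7.65 without 1 library, where 5 libraries cannot give a p below 0.0625. The share with edges within 10 bp (23.3%) was 15% within 5 bp, 35.1% within 20 bp, 44.5% in the 4 libraries with long limits, 17.6% with a limit of 25 and 18.7% on all sequences. Strong regions called by limma on the centred scale (0) numbered 0 to 277 without 1 library, the highest without cold replicate 1. All regions called (1) numbered 0 without centring, 5 for the best THS, 0 with the replicate block and 0 to 983 without 1 library. Regions with cold percentiles above control (0) numbered 1 on all sequences, and those below (146) numbered 49 by score. The cause of these changes was not tested.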

Other observations

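Outside chromosomes 1 to 19, 192 further regions reached a score of 50 in all 6 lists. They were 25.1% of the 766 always-open regions on the unplaced and random sequences, against 17.0% on chromosomes 1 to 19, and 28.5% of the 673 regions at this limit in the whole assembly. This difference was not tested.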
